A study of Sus scrofa with 6 samples.

Results

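Genes of the cell cycle and mitosis were followed in the endometrium, the lining of the uterus, of Erhualian sows, a Chinese pig breed. The list named 48 genes by symbol, and 40 of them matched a row of the deposited table of 14262 genes through their Ensembl pig identifiers. The other 8, MKI67, CCNA2, CDC20, AURKA, RRM2, PCNA, MCM5 and GINS2, matched no row and are not analysed here. By role, the 40 comprised 24 mitotic genes, 6 replication genes of the helicase and ribonucleotide reductase (MCM2, MCM3, MCM4, MCM6, MCM7 and RRM1), 3 further replication genes (TYMS, CDC6 and CDC45), 3 cyclins of G1 and 4 transcription factors and checkpoint genes. Tissue came from 3 high prolific and 3 low prolific sows on day 12 of gestation, with 1 library of total RNA per sow. The series is about sows that differ in litter size and calcium ion concentration, and the labels name no treatment. Sows are called high 1 to high 3 and low 1 to low 3 after the numbers in their labels. Parity, the count of litters borne, was 5 in high 1, 8 in high 2 and high 3, 7 in low 1 and low 2, and 5 in low 3.

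A dividing cell first copies its DNA and then separates the copies. In G1, cyclin D and cyclin E release the E2F factors, which switch on the genes of DNA replication, among them the MCM helicase that unwinds DNA and the enzymes that supply deoxynucleotides. Later the factors B-MYB and FOXM1 switch on the mitotic genes, whose products condense chromosomes, build the spindle, hold the spindle checkpoint and cut the cell in 2. Transcripts of the mitotic genes are scarce in resting cells and peak shortly before division, so they are widely read as marks of dividing cells, while several replication genes keep a base level outside the cycle. In the endometrium, epithelium, stroma, vessels and leukocytes can all divide, and steroid hormones govern when they do.

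All values are normalized read counts, a signal scaled by the authors in a way that no label or header states. With that, the sequencing depth behind each value is unknown. Columns summed to between 22663087 and 24270245. Group differences are log2 fold changes of high minus low prolific sows on the log2(value + 1) scale, tested with limma over all 14262 genes with Benjamini-Hochberg adjustment at 0.05. Epithelial markers such as EPCAM (7896 to 11765) and stromal markers such as DCN (25963 to 43282) were present in each library. These are bulk samples, in which more cells of a dividing type and more RNA per cell cannot be told apart.

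Mitotic genes ranged more widely over the sows than replication genes, and the sows did not separate into the 2 groups. In 20 of the 24 mitotic members low 2 and low 3 held the highest values, high 1 came next, and high 2, high 3 and low 1 were lower. On average 35 of the 40 members lay lower in high prolific sows, where 50.4% of all genes did, with a median log2 fold change of -0.68 against -0.0024 over all genes. None passed the test: limma called 0 of 40 members, as it called 0% of all genes. Adjusted p-values of the members lay between 0.62 and 0.98. At an unadjusted p under 0.05 there were 2 members, CHEK1 and MCM6, where 7.92% of all genes reached it. Both lay lower in high prolific sows, as did 4.09% of all genes at that p. The groups did not overlap in these 2 members, as in 6.32% of all genes in that direction, and 0 members lay higher without overlap, where 7.18% of all genes did. Without low 1, 25 of the 40 members had an unadjusted p under 0.05, where 13.1% of all genes did, and the smallest adjusted p among them was 0.121 with limma. The same count was 4 without high 1, 0 without high 2, 2 without high 3, 0 without low 2 and 1 without low 3. Over all genes it ran from 466 without high 2 to 1872 without low 1. Low 1 was the lowest of the low prolific sows in 38 of the 40 members, so leaving it out widens their difference by that choice. Without both low 2 and low 3 the low group is low 1 alone, and 34 of the 40 lay higher in high prolific sows, with a median of 0.27. Those 2 sows were left out because they held the highest values, so this direction follows from the choice and is given only as a description.

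**Figure D1:**
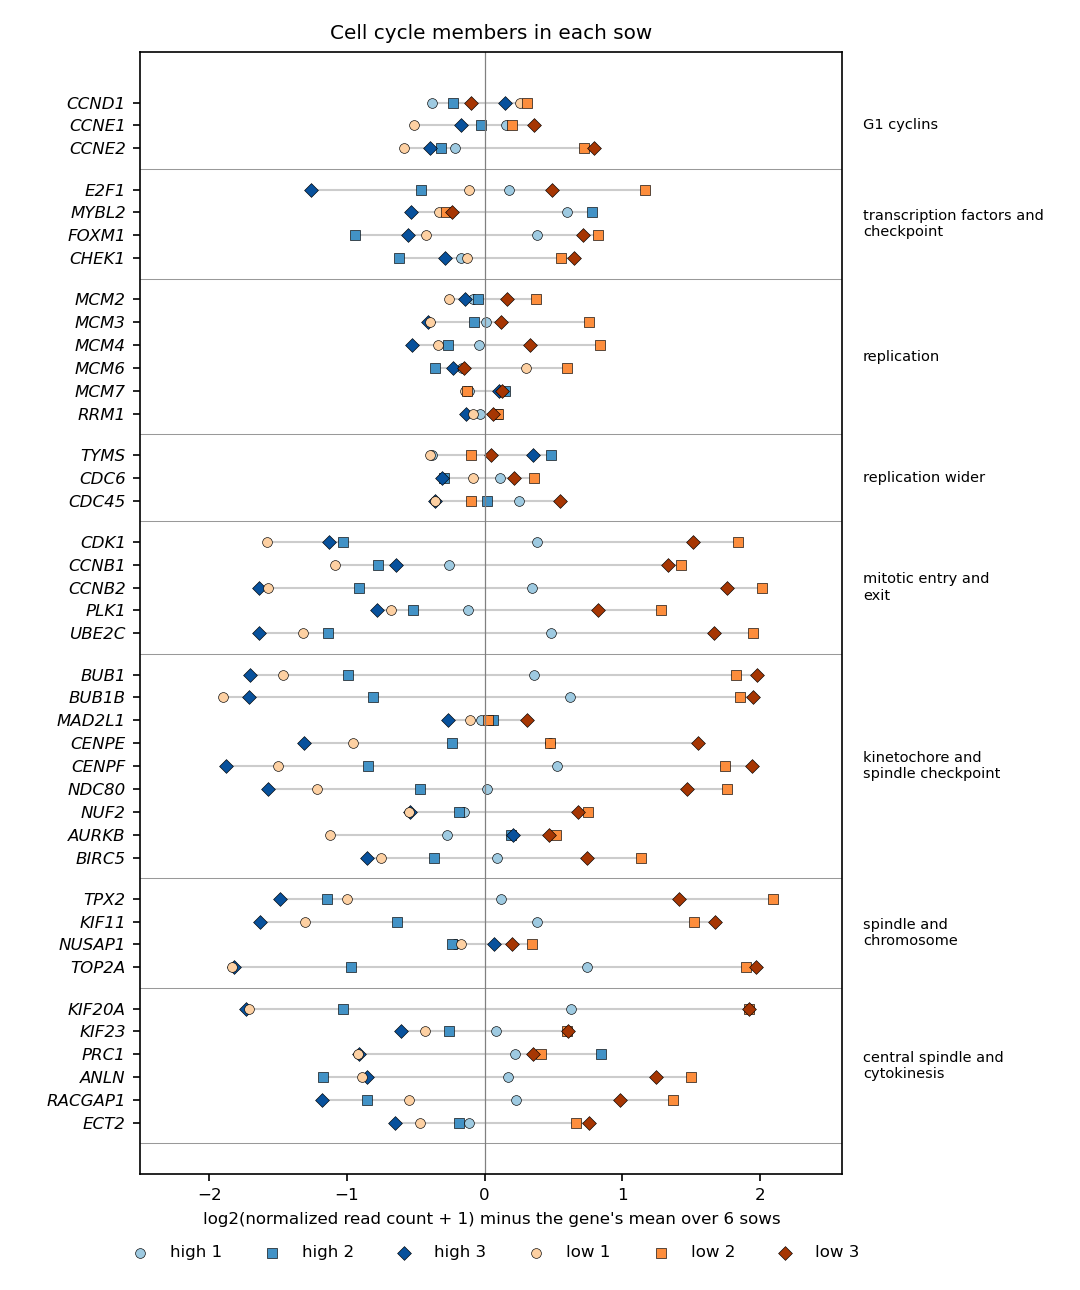
Each row is 1 of the 40 measured members and each symbol 1 sow (blue, high prolific; orange, low prolific), placed at its log2(value + 1) minus the mean of that gene over the 6 sows. In 20 of the 24 mitotic rows low 2 and low 3 lie furthest right, with high 1 next and high 2, high 3 and low 1 further left. Replication rows are mostly narrower, and the widest of them is MCM4 at 2.58-fold.

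Among genes of mitotic entry and exit, all 5 measured members had low 2 and low 3 as the 2 highest libraries and high 1 as the next, an order that 5.88% of all genes showed. CDK1, the kinase whose activity starts mitosis, was at 88.2, 32.4 and 30.2 in high 1 to high 3 and at 21.9, 244 and 194 in low 1 to low 3. The groups overlapped, since low 1 held the lowest value and low 2 the highest, and the log2 fold change was -1.18 ± 0.96 (SE, n = 3 per group; adjusted p = 0.75 with limma). CCNB1, cyclin B1, the partner that activates CDK1, was at 99.8, 69.6 and 76.2 in high and 55.8, 324 and 303 in low prolific sows, with a log2 fold change of -1.12 ± 0.68 (adjusted p = 0.69 with limma). CCNB2, a second B-type cyclin, was at 68.5, 28.1 and 16.5 against 17.4, 221 and 184. PLK1, a kinase that matures centrosomes and drives mitotic entry, had the narrowest range of the 5, at 85.2, 64.4 and 53.7 against 57.6, 227 and 165 (-0.95 ± 0.52, adjusted p = 0.67 with limma). UBE2C, the ubiquitin-conjugating enzyme with which the anaphase-promoting complex destroys cyclin B, was at 88.2, 28.0 and 19.5 against 24.5, 246 and 202. In all 5 genes low 2 was the highest library, followed by low 3 and high 1.

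The kinetochore links chromosomes to the spindle, and the spindle checkpoint delays anaphase until each is attached. Of 9 measured members of this role, 8 had low 2 and low 3 on top. CENPF, a kinetochore protein that accumulates in G2, was at 372, 143 and 69.3 in high and 90.5, 868 and 991 in low prolific sows. BUB1, a checkpoint kinase, was at 64.3, 24.5 and 14.6 against 17.4, 179 and 200, and BUB1B, which encodes the checkpoint protein BUBR1, at 156, 57.1 and 30.2 against 26.3, 368 and 394. BUB1B had the widest range of all 40 members, 14.5-fold from low 1 to low 3. NDC80, of the complex that grips microtubules, was at 55.0, 38.8 and 17.5 against 22.8, 187 and 152. NUF2, its partner in the same complex, ranged over only 2.47-fold, at 174, 169 and 132 against 131, 324 and 308. The 2 partners shared the order of low 2, low 3 and high 1 on top and differed in how widely they spread.

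CENPE, a kinetochore motor, was at 291, 177 and 83.9 in high and 108, 291 and 616 in low prolific sows, so that low 2 and high 1 were nearly equal below low 3. BIRC5, survivin, was at 148, 107 and 76.1 against 81.7, 305 and 232. AURKB, the kinase of the same chromosomal passenger complex, was at 118, 162 and 164 against 64.8, 204 and 197. Here high 2 and high 3 lay above high 1, and only low 1 stood well below the rest, so the log2 fold change was 0.09 ± 0.47, turning to -0.45 without low 1. MAD2L1, the checkpoint protein MAD2, hardly varied, from 253 in high 3 to 376 in low 3.

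Of the 4 spindle and chromosome genes, TPX2, which activates Aurora A on spindle microtubules, had the most negative log2 fold change of all members. It was at 290, 121 and 94.7 in high and 133, 1147 and 712 in low prolific sows, a log2 fold change of -1.67 ± 0.85 (adjusted p = 0.66 with limma). Low 1 fell between high 1 and high 2, and the log2 fold change was -2.59 without low 1 and -1.04 without low 2. TOP2A, topoisomerase II alpha, which untangles sister chromatids, was at 808, 245 and 136 against 134, 1793 and 1890, a log2 fold change of -1.36 ± 1.17 (adjusted p = 0.76 with limma). Low 1 and high 3 were nearly equal at the bottom. KIF11, the motor that pushes the spindle poles apart, was at 278, 138 and 68.3 against 86.1, 617 and 684. NUSAP1, a microtubule-bundling protein, was an exception with a range of 1.499-fold, at 1221, 1199 and 1484 against 1257, 1798 and 1623.

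The 6 measured genes of the central spindle and of cytokinesis, the final cleavage of the cell, had a median range over sows of 4.63-fold. RACGAP1, a subunit of the centralspindlin complex, was at 214, 100 and 80.0 in high and 125, 475 and 363 in low prolific sows (log2 fold change -1.21 ± 0.59, adjusted p = 0.65 with limma). KIF23, the motor subunit of the same complex, was at 585, 461 and 362 against 409, 838 and 839, a range of 2.31-fold beside 5.87-fold for RACGAP1. ECT2, the exchange factor that centralspindlin recruits to the cleavage site, ranged over 2.65-fold, at 238, 227 and 164 against 186, 410 and 437 (-0.63 ± 0.36, adjusted p = 0.67 with limma). ANLN, anillin, a scaffold of the contractile ring, was at 272, 106 and 133 against 130, 684 and 574 (-1.24 ± 0.69, adjusted p = 0.67 with limma). In all 4 of these genes low 1 lay within the range of the high prolific sows. KIF20A, a kinesin of the midzone, had the widest range here, at 205, 64.1 and 39.0 against 39.7, 504 and 504. PRC1, which bundles midzone microtubules, was highest in high 2, at 661, 1020 and 300 against 299, 751 and 722, so its log2 fold change of 0.11 ± 0.54 turned to -0.29 without high 2 and -0.33 without low 1.

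**Figure D2:**
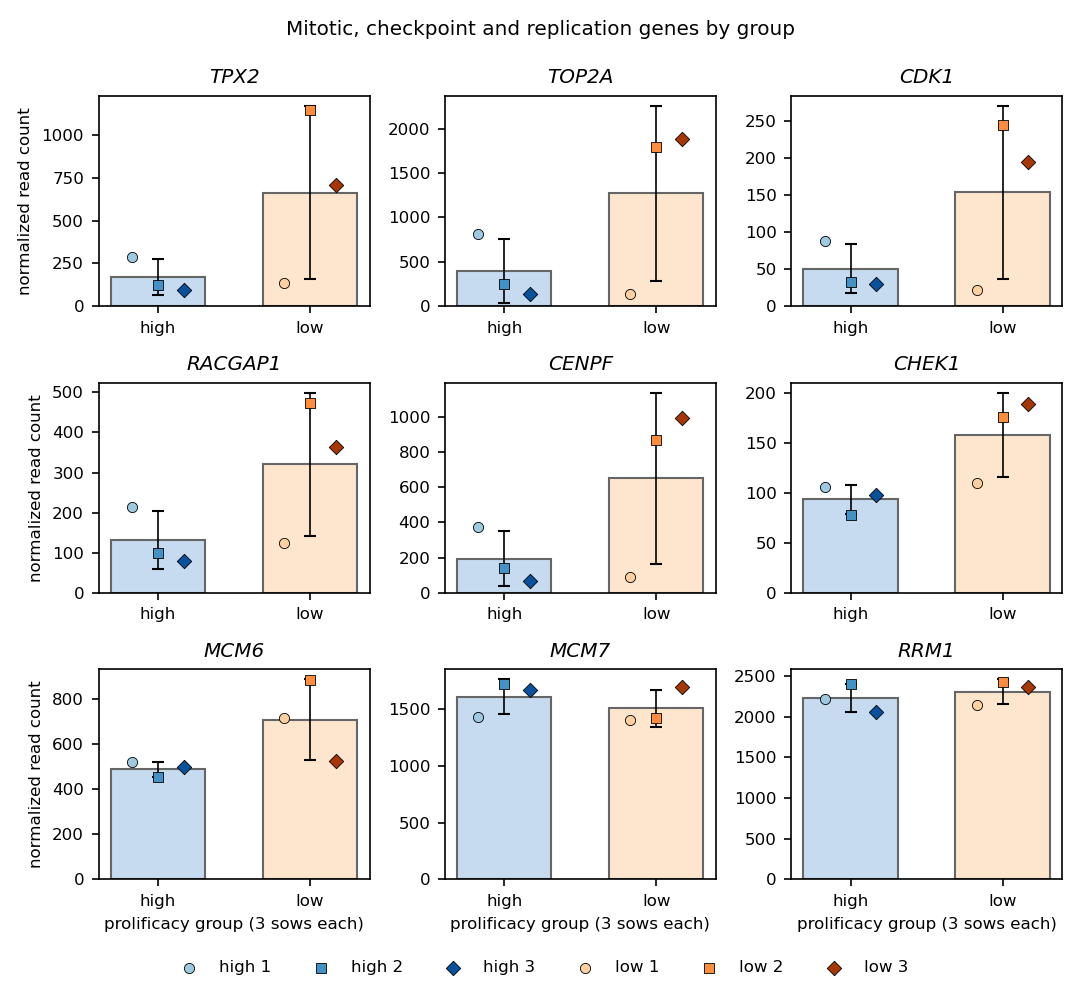
Normalized read counts (linear axes from 0) of 9 members, selected to show each role after their values were seen. Each bar gives the mean of a group (n = 3), its error bar the SD, and each symbol a sow: for TPX2, TOP2A, CDK1, RACGAP1 and CENPF low 1 sits with the high prolific sows, while MCM7 and RRM1 are level across all 6.

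Replication genes were comparatively even. RRM1, the large subunit of ribonucleotide reductase, which makes deoxynucleotides, was at 2216, 2405 and 2057 in high and 2137, 2420 and 2367 in low prolific sows, a range of 1.18-fold. MCM7 was at 1433, 1721 and 1668 against 1402, 1418 and 1694, and was the replication helicase subunit that lay higher in high prolific sows (log2 fold change 0.10 ± 0.12). MCM2 was at 330, 338 and 317 against 292, 453 and 391 (-0.18 ± 0.18, adjusted p = 0.80 with limma). In these 3 genes the ranges of the groups overlapped.

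MCM3, MCM4 and MCM6 varied more, with low 2 as the highest library in each. MCM3 was at 283, 266 and 211 in high and 214, 476 and 306 in low prolific sows, and MCM4 at 253, 216 and 180 against 206, 466 and 327. MCM6 was at 520, 454 and 497 against 719, 884 and 527, and its groups did not overlap, by a gap between high 1 and low 3. Its log2 fold change was -0.50 ± 0.20, with an unadjusted p of 0.0436 and an adjusted p of 0.63 with limma. Low 1 was the second highest sow for MCM6, whereas it was the lowest for MCM2 and MCM7, although the products of these genes are subunits of 1 hexamer. Of the further replication genes, CDC6, which loads the helicase, was at 64.4, 48.5 and 47.8 against 56.1, 76.9 and 69.4. CDC45, which activates it, was at 827, 707 and 543 against 542, 649 and 1020. TYMS, thymidylate synthase, lay higher in high prolific sows at 175, 319 and 292 against 173, 213 and 235, with an overlap of the groups. None of these 9 genes passed the test.

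Set side by side, the median log2 fold change was -1.20 over the 24 mitotic members and -0.25 over the 6 replication members, or -0.18 over all 9 replication genes. Of the mitotic members 22 lay lower and 2 higher in high prolific sows, and of the 6 replication members 5 lay lower and 1 higher. A list score was taken in each sow as the mean over members of a gene's log2(value + 1) minus its mean over the 6 sows. The mitotic score was 0.20, -0.57 and -1.09 in high 1 to high 3 and -1.04, 1.29 and 1.22 in low 1 to low 3. The replication score was -0.07, -0.09 and -0.22 in high 1 to high 3 and -0.15, 0.42 and 0.11 in low 1 to low 3. Low 2 and low 3 were the highest sows in both lists, and on the mitotic score low 1 lay between high 2 and high 3. As a geometric mean over the mitotic members, low 2 held 5.04 times and low 3 held 4.81 times the level of low 1, and high 1 held 2.45 times that of high 3. For replication the same ratios were 1.49, 1.20 and 1.11. Mitotic score minus replication score ran from -0.89 in low 1 and -0.87 in high 3 through -0.48 in high 2 and 0.27 in high 1 to 0.87 in low 2 and 1.11 in low 3. The 2 largest and the smallest of these differences all belonged to low prolific sows. No test was made of these scores.

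**Figure D3:**
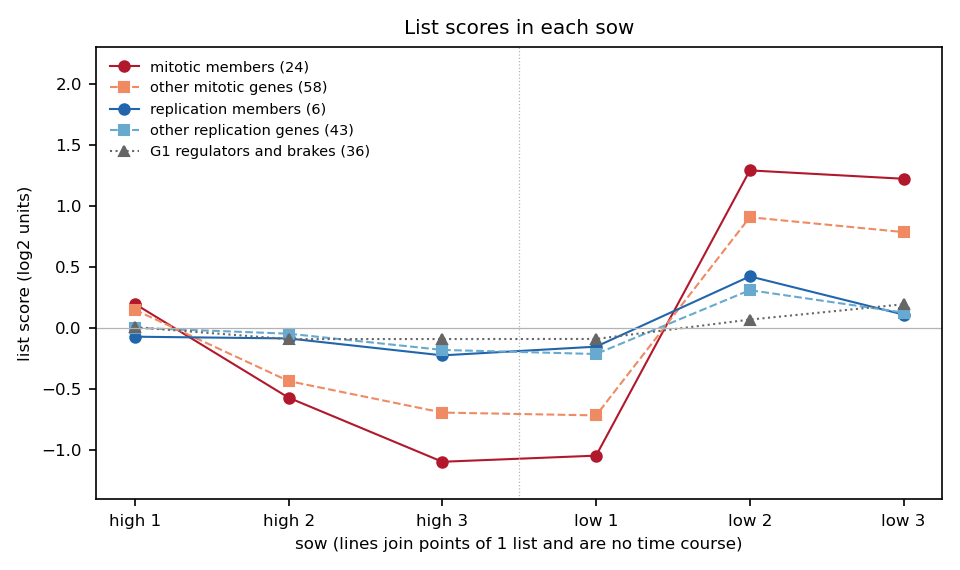
List scores (log2 units, mean over the genes of a list relative to each gene's mean over 6 sows) in each sow. The mitotic members span -1.09 to 1.29 and the other mitotic genes -0.72 to 0.91, while the 3 other lists stay between -0.22 and 0.42.

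The single genes show the same contrast in spread. Between the highest and the lowest sow, on the scale of value + 1, 16 of the 24 mitotic members ranged over more than 4-fold, where 7.37% of all genes did, and 0 of the 9 replication genes. Over 2-fold were 22 of the 24 and 2 of the 9, where 28.4% of all genes were. The median range was 6.82-fold for mitotic members, 1.75-fold for the 6 replication members and 1.57-fold for all genes. With the depth unknown, the part of counting error in these ranges was not tested. Wide and narrow ranges both occurred at low values, as in BUB1 (12.87-fold, 14.6 to 200) and CDC6 (1.59-fold, 47.8 to 76.9). Both also occurred in genes that reached higher values, as in TOP2A (13.98-fold, 134 to 1890) and NUSAP1 (1.499-fold, 1199 to 1798). These 4 genes were picked as examples, and ranges were not compared between genes of matched level. Low 2 and low 3 were the 2 highest libraries in 22 of the 24 mitotic members, 4 of the 9 replication genes and 12.8% of all genes. High 3 or low 1 was the lowest in 22 of the 24 mitotic members and in 4189 of all 14262 genes. Low 1 was the lowest of the 3 low prolific sows in all 24 and in 4599 of all genes. The spread within groups was correspondingly large: the median SD of log2 values of the mitotic members was 0.83 among high and 1.37 among low prolific sows, against 0.18 and 0.24 over all genes.

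**Figure D4:**
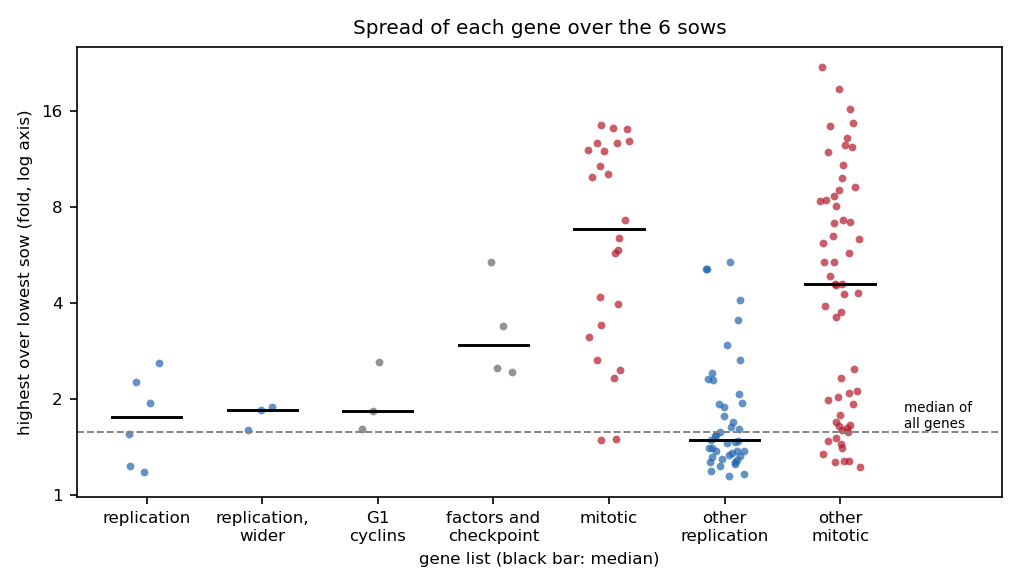
Each point is 1 gene, placed at the ratio of its highest to its lowest sow on the scale of value + 1 (log axis). Black bars are list medians and the dashed line the median of all genes (1.57-fold); mitotic members reach a median of 6.82-fold and replication members 1.75-fold.

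Of the 3 cyclins of G1, the E-type pair shared the mitotic order of sows and cyclin D1 did not. CCND1, cyclin D1, through which growth signals start the cycle, was at 1347, 1492 and 1939 in high and 2098, 2169 and 1636 in low prolific sows, with low 1 and low 2 highest (log2 fold change -0.31 ± 0.18, adjusted p = 0.67 with limma). CCNE1, cyclin E1, was at 54.1, 47.6 and 42.96 against 33.7, 56.0 and 62.4, with low 3, low 2 and high 1 on top within a narrow range. Its difference of -0.03 ± 0.30 turned to positive values of at most 0.044 when columns were rescaled to the same total or median or quantile normalized. CCNE2, cyclin E2, had its 2 highest values in low 3 and low 2, well above the other 4 sows, at 65.5, 60.9 and 57.6 against 50.5, 126 and 133.

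The factors upstream of the 2 programmes differed among themselves. E2F1, an activator of replication genes, was at 91.4, 58.2 and 33.2 in high and 74.7, 182 and 114 in low prolific sows, with a log2 fold change of -1.03 ± 0.47 (unadjusted p of 0.0693, adjusted p of 0.64 with limma). Low 2, low 3 and high 1 were its highest sows. FOXM1, an activator of mitotic genes, was at 99.7, 39.5 and 51.7 against 56.8, 136 and 126 (-0.74 ± 0.48, adjusted p = 0.70 with limma). It had the same 3 sows on top. MYBL2, which encodes B-MYB, did not: it was at 1293 and 1468 in high 1 and high 2, at 588 in high 3, and between 679 and 725 in the low prolific sows. CHEK1, the checkpoint kinase that restrains mitosis while DNA is being copied, was at 106, 77.5 and 97.7 against 110, 176 and 189. Its groups did not overlap, by the gap between high 1 and low 1, and its log2 fold change was -0.72 ± 0.27, with an unadjusted p of 0.0347 and an adjusted p of 0.62 with limma.

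Other genes of the pathway were taken from 3 lists by role. Of 58 other measured mitotic genes, 47 lay lower and 11 higher in high prolific sows, with a median log2 fold change of -0.65 and 0 past the test. Low 2 and low 3 were on top in 43 of the 58. ZWINT, a kinetochore protein, was at 29.1, 31.9 and 12.7 in high and 54.1, 91.3 and 161 in low prolific sows, without overlap (log2 fold change -1.98 ± 0.52, adjusted p = 0.62 with limma). SPC24, of the NDC80 complex, was at 57.1, 40.5 and 33.2 against 56.6, 747 and 290. CKS2, a small CDK-binding protein, was at 1074, 1045 and 1024 against 1148, 1837 and 2127, again without overlap. These 3 were named for their small p and do not stand for the list. Of all 58, 2 lay lower and 1 higher without overlap, where 6.32% and 7.18% of all genes did. The median of the 58 ran from -1.26 without low 1 to -0.33 without low 2, and it was -0.02 over the 23 genes with a mean of at least 200, of which 14 lay lower and 9 higher. For the 14 mitotic members with such a mean the median was -0.96.

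Of 43 other measured replication genes, 24 lay lower and 19 higher, with a median of -0.05, a median range of 1.48-fold and 0 past the test. In 16 of the 43, low 2 and low 3 were on top, where 12.8% of all genes showed this. High 1 came next in 8 of the 43, where 5.88% of all genes had that order. A range above 4-fold was seen in 4 of the 43, among 7.37% of all genes. GMNN, geminin, which blocks a further round of licensing, was at 504, 597 and 510 in high and 642, 857 and 1160 in low prolific sows. MCM8, a helicase of DNA repair, went the other way at 605, 618 and 712 against 540, 523 and 453, as did PRIM1, a primase subunit, at 216, 305 and 254 against 176, 202 and 157. These 3 genes did not overlap between groups and had an adjusted p of 0.62 with limma. Of the 43, 1 lay lower and 5 higher without overlap, where 6.32% and 7.18% of all genes did.

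Among 36 measured G1 regulators and brakes, 20 lay lower and 16 higher (median -0.04), also with 0 past the test. GADD45B, a stress-induced regulator of growth arrest, had the smallest unadjusted p, 0.00382 with limma, at 699, 632 and 616 against 977, 976 and 832. E2F2 was at 81.0, 55.5 and 45.9 against 87.4, 104 and 87.7. CDK6, a partner of D-type cyclins, was at 175, 110 and 149 against 192, 188 and 235, and CCND2, cyclin D2, at 1007, 1071 and 946 against 1084, 1216 and 1332. The groups did not overlap in these 4 genes, which were the only ones of the 36 to lie lower without overlap. Another 2 of the 36 lay higher without overlap. Over all genes 6.32% lay lower and 7.18% higher in this way. CDK4 (-0.03), RB1 (0.03), the retinoblastoma protein gene, and the inhibitors CDKN1B (0.14), CDKN1C (0.33) and CDKN1A (0.38) had log2 fold changes within 2 standard errors of 0, and that of CDK4 turned to 0.012 with columns at the same total and 0.0016 at the same median. CDKN1A, p21, a brake induced by p53, was lowest in low 2, at 281, 304 and 372 against 273, 185 and 285.

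By score, the neutrophil, endothelial and stromal marker lists had low 3, low 2 and high 1 on top, and the other marker lists did not. Of single markers, 2 of 4 neutrophil, 1 of 5 endothelial and 3 of 8 stromal ones had low 2 and low 3 highest and high 1 next. Over all genes 5.88% showed that order. Of 4 neutrophil markers, S100A8 and S100A12 had low 2 and low 3 on top and high 1 next, with S100A8 at 713, 2.22 and 113 in high and 85.2, 5414 and 10857 in low prolific sows, while MMP8 was highest in low 1 and CSF3R in high 1. Summed over the 4, the high prolific sows held 276 to 9139 and the low prolific sows 11666 to 23295. MMP8 made up 11243 of the 11666 in low 1, whose neutrophil score of -0.28 lay within the high prolific sows' -4.44 to 0.87. Endothelial markers, 5 measured, were all highest in low 3 and summed to between 9190 and 13751 in high and between 11578 and 20937 in low prolific sows. Stromal markers, 8 measured, summed to between 507947 and 692882 against 601230 and 813388, and 5 of the 8 had low 2 and low 3 on top. The collagens COL3A1 (304833), COL1A1 (255612) and COL1A2 (172145) made up most of the 813388 in low 2. PDGFRA, DCN and VIM did not have low 2 and low 3 on top. Epithelial markers, 7 measured, went both ways, with 3 lower and 4 higher in high prolific sows. Their score was -0.10 in low 2, -0.35 in low 3 and 0.29 in low 1, with the keratins KRT7, KRT8 and KRT18 low in low 2 and low 3, while CDH1 (26177) and CLDN4 (14154) were highest in low 2. T and NK cell markers, 8 measured, were lowest in score in low 2 (-0.44) and had low 2 and low 3 on top in 0 of 8, and macrophage markers in 1 of 6. No marker in any of these lists was at 0 in any library. The part of cell makeup in the mitotic levels was not tested.

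**Figure D5:**
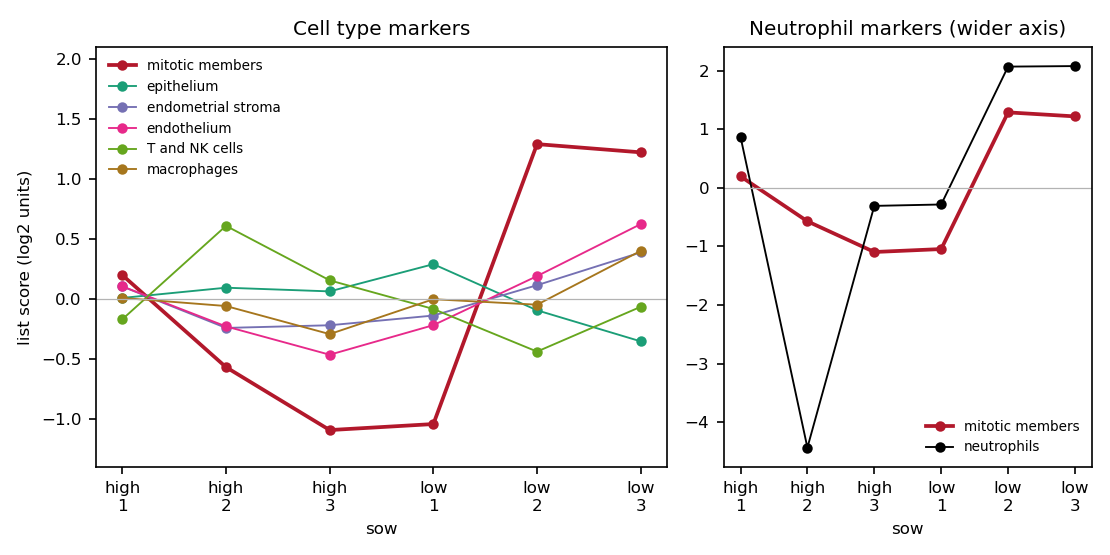
Scores (log2 units) of cell type marker lists beside the mitotic members in each sow, with neutrophil markers on a wider axis at the right. The endothelial score (0.62) and the stromal score (0.39) are highest in low 3 and the epithelial score (-0.35) is lowest there, while the neutrophil score is nearly equal in low 2 (2.07) and low 3 (2.08).

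The 2 sows of parity 5, high 1 and low 3, had mitotic scores of 0.20 and 1.22, those of parity 7, low 1 and low 2, had -1.04 and 1.29, and those of parity 8, high 2 and high 3, had -0.57 and -1.09. With parity as a covariate the median log2 fold change of the mitotic members was -0.82 in place of -1.20 and that of the replication members -0.23, and limma again called 0 of them. No low prolific sow had parity 8, so for those values parity and group cannot be told apart.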

How the data were processed

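The authors deposited 1 table of normalized read counts for 6 libraries, a signal that is not whole and never negative. The submitters' processing notes name Subread 1.6, featureCounts and edgeR. What each did, the genome build, the annotation and the strand setting are not given in the sources used here. Of values below 20, 100% in high 3 and 93.6% in high 1 fell within 0.1 of multiples of a single fitted step. In the other libraries 46.1% to 68.4% did, and the share to be met by chance was not computed. Whole reads could therefore not be had for all libraries, and a count test was not used. The smallest gene mean in the table was 17.6, and requiring a value of 10 in 3 libraries left out 0 genes. Symbols came from a table of Ensembl identifiers that matched 11977 of 14262 rows.

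Differences were tested with limma 3.58.1 (R 4.3.3, variance trend, robust moderation, two-sided) on log2(value + 1), with all 6 libraries, after a check on simulated data. Each sow gave 1 library, so p-values reflect the spread between these sows.

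The members and all lists were chosen with earlier results of these data known, so lists get counts and medians and no test. All measured members could be named, with full statistics for the 8 with the smallest unadjusted p and for well-known members. From each further list the 3 genes with the smallest unadjusted p were named, with CDKN1A, CDKN1B, CDKN1C, RB1, CDK4, CDK6 and CCND2. Lists of B and plasma cells, of smooth muscle and of erythroid cells were also measured: their scores were highest in high 1 (0.47), low 2 (0.37) and low 3 (1.77). Promoter motifs were not analysed here. Alternatives were the pseudocount, filters, 3 rescalings, limma's settings, library weights, a replicate block, parity, and leaving out each sow or both low 2 and low 3. Same-numbered high and low sows deviated from their group means with correlations of -0.38, -0.16 and -0.36 across genes. For sows of unlike number the correlations lay between -0.045 and 0.375. The labels state no pairing, and these correlations cannot tell whether sows were paired.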

Additional observations from a re-analysis of the deposited data

How the results depend on the processing

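Under the 19 alternatives, limma called 0 members in each, with a smallest adjusted p of 0.121. Outside the loss of both low 2 and low 3, 688 of 704 fitted member values kept their direction. That count includes alternatives that cannot change a log2 fold change. These are dropping a filter that left out no gene, the variance trend, robust moderation and the replicate block. Over all genes, 4 were called without low 1, 1 without low 2 and 0 without any other single sow. The median of all members ran from -1.05 (without low 1) to -0.44 (without low 2), that of mitotic members from -1.97 to -0.67, and mitotic minus replication medians from -1.55 (without low 1) to -0.48 (without low 3). The replication median was -0.03 without low 2. The label number was also used as a replicate block, though the labels state no pairing. All medians were then unchanged (-0.68 over all members), as they must be with 1 high and 1 low sow per number. With this block, 615 genes in place of 1129 had an unadjusted p under 0.05 with limma. Requiring a mean of at least 200 kept 24 members, 20 of them lower, with 0 called, and 23 of the 58 other mitotic genes, with a median of -0.02 in place of -0.65.

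Without both low 2 and low 3, left out because they were highest, the low group is 1 sow, assumed to vary like the rest, and the turn follows from that choice. The median of all members was then 0.27 and the difference of mitotic minus replication medians 0.43, and 29 members turned. These were TOP2A (1.15), BUB1B (1.27), KIF20A (1.00), CDK1 (0.99), CCNB2 (0.84), CENPF (0.77), BUB1 (0.69), KIF11 (0.67), CENPE (0.60), UBE2C (0.56), NDC80 (0.54), CCNB1 (0.53), CCNE1 (0.50), BIRC5 (0.38), CDC45 (0.33), CCNE2 (0.27), ANLN (0.27), NUF2 (0.26), MCM3 (0.23), PLK1 (0.20), KIF23 (0.17), MCM2 (0.17), TPX2 (0.16), ECT2 (0.15), MCM4 (0.057), RRM1 (0.056), FOXM1 (0.051), NUSAP1 (0.043) and MAD2L1 (0.026).

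Near 0, CCNE1 turned to 0.0036 at the same median, 0.014 at the same total, 0.015 with library weights, 0.044 with quantile normalization and 0.061 with parity. CDC45 turned to 0.057 with weights and 0.085 with parity, and CDK4 to 0.0016 at the same median and 0.012 at the same total. Over single left-out sows, CCNE1 ran from -0.30 to 0.14, CDC45 from -0.25 to 0.20, CDK4 from -0.15 to 0.029, AURKB from -0.45 to 0.37, PRC1 from -0.33 to 0.59, RB1 from -0.090 to 0.18 and RRM1 from -0.11 to 0.0024. The depth of the libraries is unknown.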
